A study of Mus musculus with 11 samples.

Results

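Collagens are the main fibre- and sheet-forming proteins of connective tissue, and the collagen genes of the mouse mammary gland are described here in glands labelled as a fat-cell knockout of Tsc1 or as wild type. Members were all genes with a symbol of the form Col, a number, a and a number, such as Col1a1, and were kept when they had at least 10 estimated reads in at least 5 of 11 libraries. Of 22196 genes in the tables, 44 had such a symbol and 32 were kept. The data are RNA sequencing of inguinal mammary glands from 6 libraries labelled Knockout, of genotype Tsc1-fl/fl; Adipoq-Cre-Tg/+, and 5 labelled Wild-Type, of genotype Tsc1-fl/fl; Adipoq-Cre-+/+. Both groups therefore carry the floxed Tsc1 alleles, and the strain label reads Adipocyte Tsc1 Knockout for all. The Cre recombinase is driven by the regulatory sequence of Adipoq, the adiponectin gene, which is active in fat cells. The animals received normal chow, and the glands were taken 16 days after delivery, with an age label of PND16.5 and no statement in the labels that the animals were lactating. Labels give no batch, litter or date and do not say whether each sample is 1 animal, so that p-values measure only the spread between these samples.

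Every collagen chain carries stretches in which glycine opens every triplet of residues, written Gly-X-Y, and 3 such chains wind around each other into a triple helix. Fibrillar collagens (types I, II, III, V, XI, XXIV and XXVII) assemble into the tension-bearing fibrils of the stroma. Type IV forms the sheet-like network of basement membranes, which lie under the epithelium and around vessels and fat cells. Type VI forms beaded filaments around cells, and the FACIT collagens, which include types IX, XII, XIV, XVI and XX, attach to the surface of fibrils. In the mammary gland the stroma is made by fibroblasts and fat cells around the ducts and alveoli, while basement membrane collagens also come from myoepithelial and endothelial cells. Tsc1 is a part of the complex that restrains the growth kinase mTORC1.

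Stretches of 90 coding bases from Col1a1 and Col4a1 show how the classes differ in the repeat on which the triple helix rests. The bases in capitals are the glycine codons (GGN), and the transcripts are those of GENCODE release M21. The first is the start of the longest unbroken repeat of Col1a1-201, with 338 triplets, and the second is the end of the longest one of Col4a1-201, with 40 triplets, and what follows it.
Col1a1-201: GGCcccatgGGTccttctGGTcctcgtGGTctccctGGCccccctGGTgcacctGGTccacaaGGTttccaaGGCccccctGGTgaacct
Col4a1-201: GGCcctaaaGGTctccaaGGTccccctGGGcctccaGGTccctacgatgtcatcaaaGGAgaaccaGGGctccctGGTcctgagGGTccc
In Col1a1 a glycine codon opened every triplet of the whole stretch. In Col4a1 the spacing broke once, after which the repeat resumed. Over all kept members the longest unbroken run was between 217 and 344 triplets in the 9 fibrillar genes, each with 2 to 3 runs of at least 5 triplets. The 4 type IV genes had a longest run of 40 to 66 triplets and 22 to 25 runs. Col9a1, Col9a2 and Col9a3, whose products form 1 molecule together, each had a longest run of 113 triplets.

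**Figure D1:**
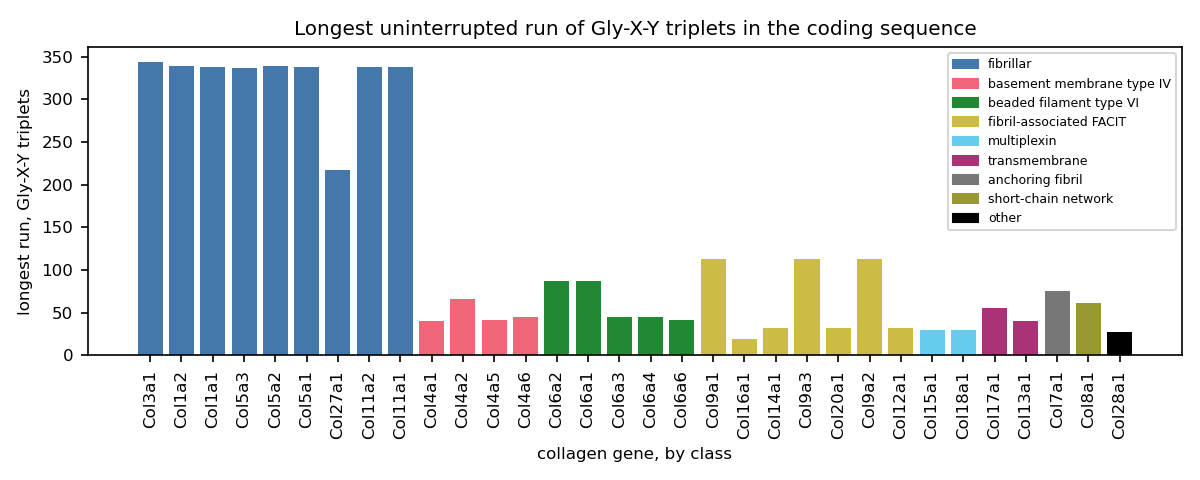
Longest unbroken run of Gly-X-Y triplets in the coding sequence of each of the 32 kept collagen genes (y axis, triplets), with genes on the x axis coloured by class and 1 transcript per gene. The 9 fibrillar genes stand between 217 and 344 triplets, while the type IV, type VI and FACIT genes have at most 113.

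The rule kept 9 of 11 fibrillar genes, 4 of 6 type IV genes, 5 of 6 type VI genes, 7 of 9 FACIT genes, both multiplexin genes (types XV and XVIII), 2 of 4 transmembrane genes, Col7a1 of the anchoring fibrils, 1 of 3 short-chain genes and Col28a1. The genes not kept were Col2a1, Col4a3, Col4a4, Col6a5, Col8a2, Col10a1, Col19a1, Col22a1, Col23a1, Col24a1, Col25a1 and Col26a1, and together they had 0.156% of the collagen reads. The last member inside the rule was Col8a1, with 4 to 14 reads per library and 6 libraries at the minimum. Just outside was Col4a3, with 3 to 14 reads and 3 libraries at the minimum. All 32 kept members also passed the filter on low counts of the genome-wide fit.

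The libraries held 25817975 to 37894237 estimated reads, and 11 milk protein genes took 65.2% ± 2.51 (SD, n = 6) of them in the knockout and 68.7% ± 2.36 (SD, n = 5) in the wild type. Tsc1 stood at 10.1 ± 1.33 (SD, n = 6) CPM (read counts relative to library size, scaled between libraries by the TMM method of edgeR) in the knockout and 10.7 ± 1.11 (SD, n = 5) in the wild type, a log2 fold change of -0.09 ± 0.11 (SE; adjusted p = 0.772, edgeR quasi-likelihood test). A count over the whole gene in a whole gland does not check a deletion in 1 cell type. Marker genes of fibroblasts summed to 57.9 to 105 CPM in the knockout and 50.9 to 78 CPM in the wild type, those of fat cells to 1171 to 1727 and 707 to 1039 CPM, and those of milk-secreting cells to 340202 to 477179 and 422314 to 593572 CPM. The fat-cell sums did not overlap between genotypes, but Cfd alone made up 905 ± 201 (SD, n = 6) CPM of them in the knockout and 527 ± 120 (SD, n = 5) CPM in the wild type. The mean log2 level of the fat-cell markers, each relative to its own mean over the libraries, did overlap, at -0.20 to 0.50 in the knockout and -0.42 to 0.06 in the wild type. Of the 8 milk-secreting markers 6 were lower and 2 higher in the knockout by log2 fold change, Krt8 (0.48) and Krt18 (0.31) being the higher ones. Higher in the knockout by log2 fold change were 6 of 10 fibroblast and 7 of 8 fat-cell markers, where 48.3% of all genes were. None of either list passed the threshold in edgeR, and 2 and 5 had an unadjusted p under 0.05, where 12.4% of all genes did. DESeq2, which passed 1.09% of all genes, passed 3 fat-cell markers, Cfd (adjusted p = 0.00494), Fabp4 (0.0399) and Adipoq (0.0498). The part of these markers in the collagen levels was not tested. In tissue RNA, fewer cells of a type and less RNA per cell cannot be told apart.

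Collagen RNA was a small share of these glands. The 32 members took 0.0993%, 0.133%, 0.0571%, 0.0657%, 0.0569% and 0.0753% of the estimated reads in Knockout 1 to 6, and 0.047%, 0.0448%, 0.0688%, 0.0649% and 0.0814% in Wild-Type 1 to 5. The groups overlapped, with Knockout 2 highest and Wild-Type 2 lowest. The means were 0.0812% ± 0.0298 (SD, n = 6) and 0.0614% ± 0.0154 (SD, n = 5), a difference of 0.0198 percentage points that was smaller than the SD within the knockout. Without Knockout 2 the difference was 0.00945 percentage points, and without Wild-Type 5 it was 0.0248. With the milk protein genes left out of the total, the means were 0.231% ± 0.0717 and 0.197% ± 0.049. Col3a1, Col4a1 and Col1a2 together had 47.9% of the collagen reads.

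No collagen gene passed the threshold of 0.05 on the adjusted p-value in the edgeR quasi-likelihood test over all 12716 genes, where 0.055% of genes passed, 0.0472% higher and 0.00786% lower in the knockout. Adjusted p-values of the 32 members ran from 0.119 for Col11a2 to 0.973 for Col7a1. At an unadjusted p under 0.05 there were 9 members, 6 of them higher in the knockout (Col4a5, Col4a6, Col9a2, Col13a1, Col16a1 and Col17a1) and 3 lower (Col6a4, Col9a1 and Col11a2). Over all genes tested, 12.4% had such a p, 6.31% in the higher and 6.08% in the lower direction. A DESeq2 fit passed 4 members at an adjusted p under 0.05, Col4a6 and Col9a2 higher and Col9a1 and Col11a2 lower, where 1.09% of 13395 genes passed. In the groups' CPM values, 1 member, Col11a2, did not overlap between the genotypes, with all knockout values lower; over all genes 0.535% were separated in that direction and 1.32% in either.

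By direction alone, 28 of 32 members had a log2 fold change above 0, where 48.3% of all genes tested did, and the median was 0.23, beside -0.01 over all genes. The 4 members below 0 were Col6a4, Col9a1, Col11a2 and Col12a1. This count moved with single libraries. Without Knockout 2 the count above 0 was 21 of 32, and the median was 0.12, while without Wild-Type 1 they were 24 of 32 and 0.19. Leaving out Wild-Type 2 gave a median of 0.13, and leaving out Wild-Type 5 gave 0.35. The members were measured in the same 11 libraries, so that their directions are not separate observations.

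**Figure D2:**
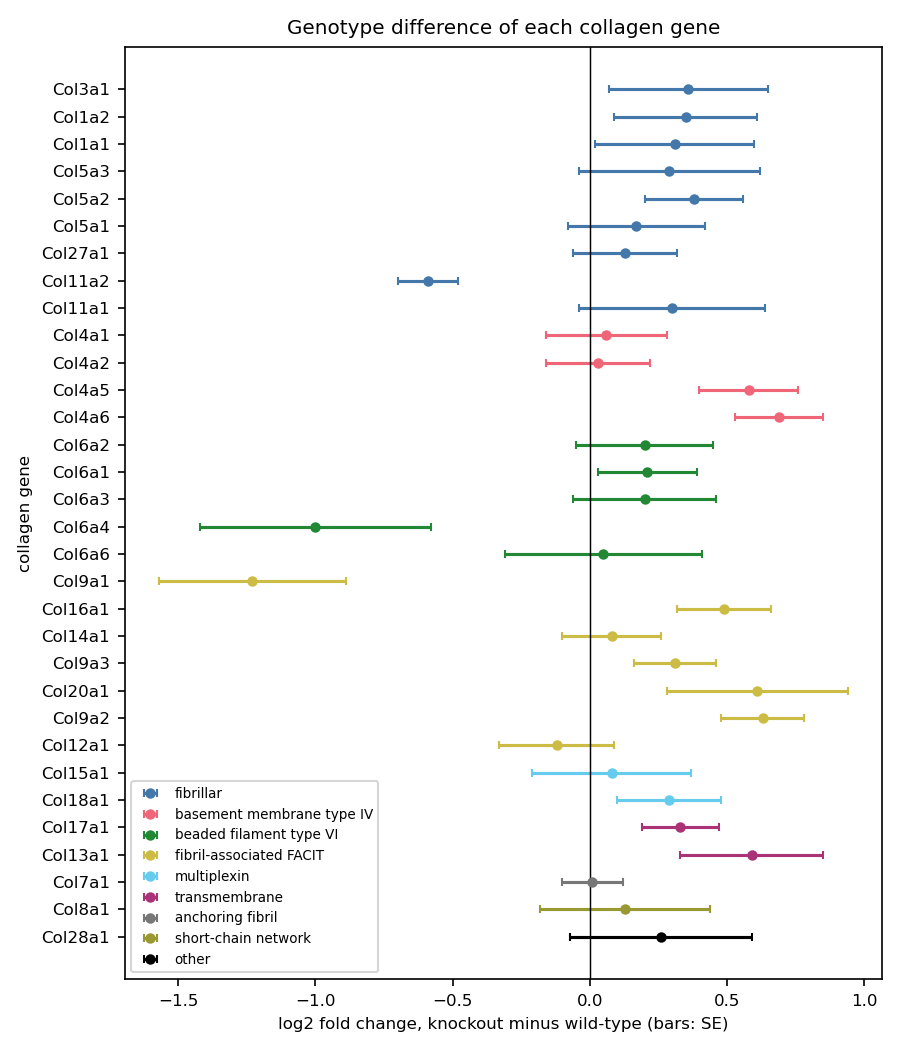
Log2 fold change (x axis, knockout minus wild type, bars are SE) of each of the 32 kept collagen genes (y axis), coloured by class, from the edgeR fit over 6 and 5 libraries. Of the 32 points 28 lie above 0, with a median of 0.23, and Col9a1 (-1.23), Col6a4 and Col11a2 lie lowest.

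The fibrillar genes made up the largest part of the collagen RNA, and 8 of 9 had log2 fold changes above 0, with a class median of 0.30 and none past the threshold. Without Knockout 2 the class median was 0.11, and without Wild-Type 5 it was 0.48. Col3a1 (chr1:45311538-45349706, plus strand, GRCm38), the single chain of type III collagen of loose stroma, had the highest level per length of all members, 18.3 TPM on average (TPM is Salmon's abundance per transcript length, with every library scaled to 1 total), and 26.2% of the collagen TPM. In CPM its lowest, median and highest knockout values were 137, 192 and 339, and Wild-Type 1 to 5 had 129, 82.5, 220, 146 and 237. Both genotypes overlapped, with Knockout 2 above and Wild-Type 2 below every other library. The log2 fold change was 0.36 ± 0.29 (SE, adjusted p = 0.647 in edgeR), 0.17 without Knockout 2 and 0.53 without Wild-Type 5.

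Col1a1 and Col1a2 encode both chains of type I collagen, the main fibril protein. Col1a1 (chr11:94936224-94953042, plus strand) had knockout values of 40.6, 56.7 and 112 CPM as lowest, median and highest, and 35.9, 34.3, 65.9, 46.4 and 77.7 CPM in Wild-Type 1 to 5. For Col1a2 (chr6:4504814-4541544, plus strand) these were 51.8, 72.2 and 129 CPM in the knockout and 46.9, 42.3, 75.1, 54 and 88.2 CPM in the wild type. Both genes had their highest value in Knockout 2 and their lowest in Wild-Type 2, and the groups overlapped. Their log2 fold changes were 0.31 ± 0.29 (SE, adjusted p = 0.696 in edgeR) and 0.35 ± 0.26 (SE, adjusted p = 0.613). They were 0.09 and 0.15 without Knockout 2, and 0.50 and 0.51 without Wild-Type 5.

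Type V chains, which set the width of type I fibrils, came next. Col5a3 ranged over 11.6, 20.4 and 40.4 CPM (lowest, median and highest) in the knockout and was 8.68, 17, 21.9, 17.9 and 23.4 CPM in Wild-Type 1 to 5. Knockout 2 again stood far above the other libraries, and the log2 fold change of 0.29 ± 0.33 (SE) was smaller than its error. The value was 0.02 without Knockout 2 and 0.42 without Knockout 5. Col5a2 and Col5a1 had log2 fold changes of 0.38 ± 0.18 (SE, adjusted p = 0.412 in edgeR) and 0.17 ± 0.25 (SE, adjusted p = 0.810). Col27a1, a minor fibrillar chain, differed by 0.13 ± 0.19, and Col11a1 by 0.30 ± 0.34. With 1 library left out, Col5a2 ran from 0.25 to 0.48, Col27a1 from 0.03 to 0.30 and Col11a1 from 0.12 to 0.53.

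Col11a2 (chr17:34039437-34066685, plus strand), a type XI chain best known from cartilage, went the other way. Its knockout values were 2.72, 3.03 and 3.31 CPM as lowest, median and highest, and those of Wild-Type 1 to 5 were 4.13, 5.14, 3.83, 4.4 and 5.12 CPM. Every wild-type library was above every knockout library, and the spread within genotypes was the smallest of all members (SD 0.15 on the log2 scale, against a median of 0.38 over the members). The log2 fold change was -0.59 ± 0.11 (SE), with an adjusted p of 0.119 in edgeR and 0.00423 in DESeq2. Over the other alternatives with all libraries the adjusted p ran from 0.11 to 0.565, and it ran from 0.0751 without Knockout 2 to 0.285 without Knockout 6 when 1 library was left out. The cartilage markers Matn1 and Matn3 had no reads in any library, and all 5 cartilage markers together summed to at most 1.16 CPM, with none passing the filter on low counts.

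**Figure D3:**
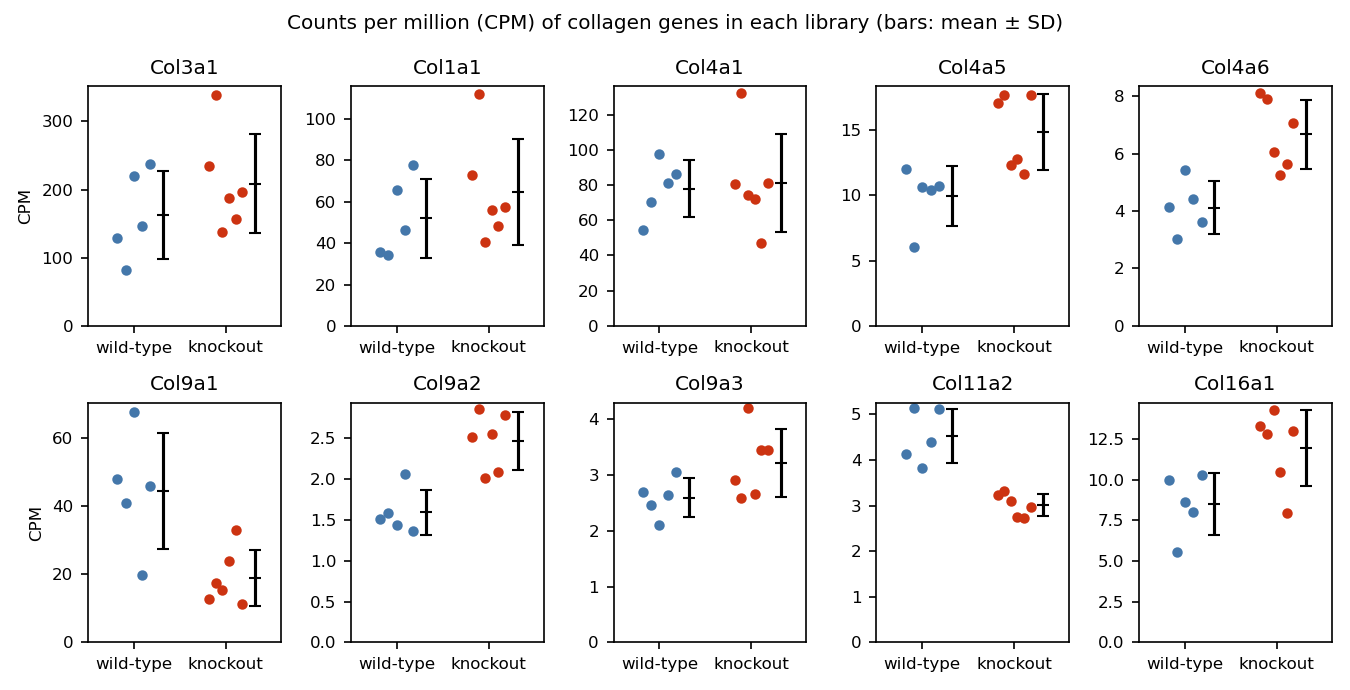
CPM (y axis, each from 0) of 10 collagen genes in each of the 5 wild-type and 6 knockout libraries (points), with the mean and SD of each group as bars. Col3a1, Col1a1 and Col4a1 overlap between genotypes with Knockout 2 at the top, while Col11a2 shows separate groups and Col9a1 overlaps in a few libraries.

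The genes of type IV collagen lie in pairs of neighbours that point away from each other. All 4 kept type IV genes had log2 fold changes above 0, with a median of 0.32 and none past the threshold in edgeR. Without Knockout 2 the class median was 0.20, and Col4a1 and Col4a2 stood at -0.13 and -0.14. Without Knockout 5 the class median was 0.41. The pair Col4a1 and Col4a2, which make the common form found in nearly all basement membranes, stood near 0. Col4a5 and Col4a6, found together in the basement membranes of selected epithelia and of smooth muscle, stood at 0.58 and 0.69. The sequences before the starts of Col4a6 and Col4a5 are shown because these neighbouring genes, whose RefSeq starts lie 1343 bases apart, had the largest log2 fold changes of their class. They are RefSeq windows of GRCm38.p6 before each start, at chrX:141474077-141474326 on the minus strand for Col4a6 and chrX:141475169-141475384 on the plus strand for Col4a5, trimmed to bases outside annotated exons. Capitals mark the matches to the motifs searched.
Col4a6: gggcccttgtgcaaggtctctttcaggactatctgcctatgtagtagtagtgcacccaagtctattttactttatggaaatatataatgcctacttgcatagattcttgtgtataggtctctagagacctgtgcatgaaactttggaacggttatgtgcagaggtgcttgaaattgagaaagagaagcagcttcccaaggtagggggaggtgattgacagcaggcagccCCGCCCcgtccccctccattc
Col4a5: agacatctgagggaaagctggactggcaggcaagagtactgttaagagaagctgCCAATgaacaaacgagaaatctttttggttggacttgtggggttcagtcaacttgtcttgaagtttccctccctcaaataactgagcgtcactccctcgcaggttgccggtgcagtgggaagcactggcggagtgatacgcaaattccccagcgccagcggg
The motifs searched on both strands were the TATA box (TATAAA), the CCAAT box, the GC box (GGGCGG) and the STAT motif (TTCNNNGAA). The Col4a6 window held the GC box once, on the other strand, as do 32.7% of all windows of that length on either strand. The Col4a5 window held the CCAAT box once, as do 30.5% of windows of its length. Neither held the other motifs.

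Col4a6 (chrX:141165403-141474076, minus strand) had knockout values of 5.26, 6.55 and 8.1 CPM as lowest, median and highest, and 4.13, 3.01, 5.43, 4.43 and 3.61 CPM in Wild-Type 1 to 5. Only Wild-Type 3 reached into the knockout range. This gave a log2 fold change of 0.69 ± 0.16 (SE), with an adjusted p of 0.218 in edgeR and 0.0177 in DESeq2. Its adjusted p ran from 0.108 to 0.575 over the other alternatives with all libraries and from 0.185 to 0.409 with 1 library left out. For Col4a5 (chrX:141475385-141689234, plus strand) the knockout values were 11.6, 14.9 and 17.7 CPM, and the wild-type ones 12, 6.05, 10.6, 10.4 and 10.7 CPM. Wild-Type 2 was far below the rest, and Knockout 5 and Wild-Type 1 overlapped. On the log2 scale the fold change was 0.58 ± 0.18 (SE), with an adjusted p of 0.274 in edgeR and 0.0936 in DESeq2.

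Col4a1 (chr8:11198423-11312826, minus strand) was the collagen gene with the second highest level per length, 7.61 TPM on average. Its knockout values were 47.3, 77.6 and 132 CPM as lowest, median and highest, and those of Wild-Type 1 to 5 were 54.7, 70.3, 97.5, 81 and 86.3 CPM. The wild-type values lay inside the knockout range, and the log2 fold change was 0.06 ± 0.22 (SE, adjusted p = 0.939 in edgeR). Col4a2 (chr8:11312805-11449287, plus strand) ranged over 36, 51.3 and 84.3 CPM in the knockout and was 39.7, 49.6, 63.6, 56.9 and 54.7 CPM in the wild type, a log2 fold change of 0.03 ± 0.19 (SE, adjusted p = 0.969). The starts of this pair lie 21 bases apart, and the genes overlap there on opposite strands. The signs of both values changed under an alternative or when 1 library was left out. Summed markers of myoepithelial cells, a source of basement membrane, were 509 to 716 CPM in the knockout and 407 to 730 CPM in the wild type, with 7 of 7 markers higher by mean and none past the threshold in edgeR or DESeq2, and 5 of 7 endothelial markers were higher. Their part in the type IV levels was not tested.

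Of 5 kept type VI genes 4 had log2 fold changes above 0, and none passed the threshold. The median was 0.20, and it was 0.02 without Knockout 2 and 0.31 without Wild-Type 5. Col6a1, Col6a2 and Col6a3 encode the chains of the common form, which is abundant around fat cells. Col6a2 had knockout values of 16.4, 24.1 and 42.2 CPM as lowest, median and highest, beside 18.1, 14.6, 26, 19.9 and 31 CPM in Wild-Type 1 to 5. Col6a1 had a knockout median of 21.5 and a highest value of 34.3 CPM (mean 22.5 ± 6.39, SD, n = 6) and was 17.9, 15.5, 22.9, 17.9 and 23.5 CPM in the wild type. For Col6a3 the knockout values were 9.4, 15.3 and 26.6 CPM, and the wild-type ones 10.9, 11.6, 16.8, 14 and 18.5 CPM. All 3 had their highest value in Knockout 2 and overlapped between genotypes. Their log2 fold changes of 0.20 ± 0.25, 0.21 ± 0.18 and 0.20 ± 0.26 (SE) were smaller than, or close to, their errors.

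Col6a4 (chr9:105989454-106096783, minus strand), a chain that can take the place of Col6a3, was the most variable member. Its knockout values were 0.571, 0.979 and 1.46 CPM as lowest, median and highest, and Wild-Type 1 to 5 had 0.84, 1.59, 0.785, 2.25 and 4.21 CPM. Wild-Type 5 and Wild-Type 4 were highest, and Wild-Type 1 and Wild-Type 3 lay within the knockout range. The means were 0.963 ± 0.318 (SD, n = 6) and 1.93 ± 1.41 (SD, n = 5) CPM, 1.99 times as high in the wild type (adjusted p = 0.369 in edgeR, SE of the log2 fold change 0.42), and the SD within genotypes was 0.73 on the log2 scale. Without Wild-Type 5 the log2 fold change was -0.50 (adjusted p = 0.626 in edgeR). Summed B cell markers were 13.8, 2.05, 1.88, 2.98, 0.807 and 2.3 CPM in Knockout 1 to 6 and 1.93, 52.7, 4.21, 15.8 and 69.7 CPM in Wild-Type 1 to 5. They were highest in the 3 wild-type libraries with the most Col6a4 and, among the knockouts, in Knockout 1, which also had the most Col6a4 of its group. All 4 tested B cell markers were lower by mean in the knockout, with a median log2 fold change of -2.77, an unadjusted p under 0.05 for each and none past the threshold in edgeR or DESeq2. Their part in the Col6a4 level was not tested. Col6a6, a related chain at under 1 CPM in all libraries, differed by 0.05 ± 0.36.

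Among the FACIT genes, the 3 chains of type IX collagen had differences of opposite sign. Col9a1 had lower values in the knockout, and Col9a2 and Col9a3 had higher ones, none past the edgeR threshold. In cartilage these 3 chains form 1 molecule on the surface of type II fibrils, and Col9a1 is known to start at either of 2 promoters, giving a long and a short form. In these glands the short form, Col9a1-202 with a coding length of 2043 bases, held 99.8% of the reads of the gene. The long form, Col9a1-201 with 2766 bases, held 0.225%, at 0 to 8.91 estimated reads per library. RefSeq windows before both starts (GRCm38.p6, chr1:24177360-24177609 and chr1:24194953-24195186, plus strand, outside annotated exons) are shown because nearly all reads came from only 1 form. Capitals would mark a match to the 4 motifs named above, and neither window held one.
Col9a1 long form: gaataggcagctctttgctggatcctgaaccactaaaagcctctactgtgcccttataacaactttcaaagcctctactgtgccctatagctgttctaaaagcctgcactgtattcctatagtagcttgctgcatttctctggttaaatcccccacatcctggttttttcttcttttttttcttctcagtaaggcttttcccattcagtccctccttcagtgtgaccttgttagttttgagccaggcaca
Col9a1 short form: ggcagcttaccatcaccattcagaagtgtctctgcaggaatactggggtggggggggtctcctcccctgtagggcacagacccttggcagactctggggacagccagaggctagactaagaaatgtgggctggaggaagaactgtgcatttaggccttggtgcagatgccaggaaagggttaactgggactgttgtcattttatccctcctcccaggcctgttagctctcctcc
Of all RefSeq windows trimmed to 250 bases, 12.4% held the TATA box, 33.8% the CCAAT box, 32.7% the GC box and 7.02% the STAT motif on either strand. At the 234 bases of the second window the shares were 11.9%, 32.5%, 30.4% and 6.58%.

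Col9a1 (chr1:24177610-24252684, plus strand) was the fourth highest collagen gene per length, at 5.44 TPM on average. Its knockout values were 11.4, 16.3 and 33 CPM as lowest, median and highest, and Wild-Type 1 to 5 had 47.9, 41, 67.5, 19.8 and 46 CPM. In 4 of the 5 wild-type libraries the level was above every knockout library, while Wild-Type 4 lay below Knockout 4 and Knockout 5. The mean was 18.9 ± 8.20 (SD, n = 6) CPM in the knockout and 44.4 ± 17.1 (SD, n = 5) CPM in the wild type, 2.35 times as high, and the log2 fold change of -1.23 ± 0.34 (SE) was the only one among the members beyond a factor of 2. The adjusted p was 0.263 in edgeR and 0.0152 in DESeq2. It ran from 0.143 to 0.58 over the other alternatives with all libraries, and from 0.144 without Wild-Type 4 to 0.458 without Wild-Type 2. The value itself stayed between -1.46 and -1.03 with any 1 library left out.

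Col9a2 (chr4:121039385-121055322, plus strand) had knockout values of 2.01, 2.53 and 2.86 CPM as lowest, median and highest, and 1.51, 1.59, 1.44, 2.06 and 1.37 CPM in Wild-Type 1 to 5. Only Wild-Type 4, the library with the least Col9a1 of its group, overlapped with the knockout. This gave a log2 fold change of 0.63 ± 0.15 (SE), with an adjusted p of 0.218 in edgeR and 0.0449 in DESeq2. Over the other alternatives with all libraries the adjusted p ran from 0.136 to 0.575, and with 1 library left out from 0.129 to 0.409. Col9a3 (chr2:180597790-180622189, plus strand) ranged over 2.59, 3.17 and 4.19 CPM in the knockout and was 2.7, 2.46, 2.1, 2.64 and 3.05 CPM in the wild type, a log2 fold change of 0.31 ± 0.15 (SE, adjusted p = 0.438 in edgeR). It overlaps Tcfl5 on the opposite strand. Per length, Col9a1 stood at 3.78 ± 1.42 TPM in the knockout and 7.42 ± 2.30 TPM in the wild type, beside 0.519 ± 0.118 and 0.287 ± 0.0856 TPM for Col9a2 and 0.670 ± 0.113 and 0.467 ± 0.099 TPM for Col9a3 (SD, n = 6 and 5). The opposite signs were noticed after the values were seen and were given no test.

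The other FACIT genes were each less far apart than Col9a1. Col16a1 (chr4:130047840-130099283, plus strand), a minor chain of fibril surfaces, had knockout values of 7.96, 12.9 and 14.3 CPM as lowest, median and highest, and 10, 5.55, 8.64, 8.01 and 10.3 CPM in Wild-Type 1 to 5. In 5 of the 6 knockout libraries it was above every wild-type library, while Knockout 5 lay within the wild-type range. A log2 fold change of 0.49 ± 0.17 resulted (SE, adjusted p = 0.313 in edgeR). Col14a1, known from mature fibrils, ranged over 7.39, 8.95 and 12.6 CPM in the knockout and was 8.96, 5.59, 11.3, 7.35 and 10.8 CPM in the wild type, a log2 fold change of 0.08 ± 0.18. Col20a1 differed by 0.61 ± 0.33 (adjusted p = 0.486 in edgeR) and Col12a1 by -0.12 ± 0.21 (adjusted p = 0.854). The value of Col20a1 was 0.44 without Wild-Type 3 and 0.93 without Wild-Type 1. Over the class, 5 members were above 0 and 2 below, with a median of 0.31.

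Types XV and XVIII, the multiplexins, sit in basement membrane zones, and the end of the type XVIII chain is the source of endostatin. Col15a1 had knockout values of 9.8, 13.5 and 28.7 CPM as lowest, median and highest, and 11.4, 12.7, 19.3, 11.8 and 22.1 CPM in Wild-Type 1 to 5. Col18a1 ranged over 8.06, 10.7 and 17.2 CPM in the knockout and was 7.53, 8.02, 10.6, 10.1 and 10.6 CPM in the wild type. Knockout 2 was the highest library for both, and the groups overlapped. Their log2 fold changes were 0.08 ± 0.29 (SE, adjusted p = 0.932 in edgeR) and 0.29 ± 0.19 (SE, adjusted p = 0.553). Without Knockout 2 that of Col18a1 was 0.14, and the class median went from 0.19 to -0.00. Without Knockout 3 that of Col18a1 was 0.37, and without Wild-Type 5 the class median was 0.29. Col18a1 overlaps Slc19a1 on the opposite strand.

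Both kept transmembrane collagens had values above 0. Col17a1, a hemidesmosome protein that fastens basal epithelial cells to their basement membrane, had knockout values of 12.6, 13.3 and 17.4 CPM as lowest, median and highest, and 11.3, 8.93, 10.5, 10.1 and 15.9 CPM in Wild-Type 1 to 5. Only Wild-Type 5 lay in the knockout range, and the log2 fold change was 0.33 ± 0.14 (SE, adjusted p = 0.387 in edgeR). Col13a1, found at cell contacts with the matrix, ranged over 0.661, 0.832 and 1.13 CPM in the knockout and was 0.77, 0.417, 0.628, 0.334 and 0.737 CPM in the wild type, a log2 fold change of 0.59 ± 0.26 (SE, adjusted p = 0.387). Keratinocyte markers, a sign of skin in the sample, summed to 5.89 to 27.7 CPM in the knockout and 3.01 to 6.28 CPM in the wild type, with the most in Knockout 2. Sbsn alone made up 6.24 of 7.03 CPM in Knockout 1 and 4.86 of 5.89 CPM in Knockout 6. In Knockout 2 it made up 7.33 of 27.7 CPM. Relative to each marker's own mean over the libraries, the mean log2 level overlapped between genotypes. It was -0.93 to 2.66 in the knockout and -1.03 to 0.41 in the wild type. All 4 tested markers were higher by mean, none passed the threshold in edgeR, and DESeq2 passed Sbsn (adjusted p = 0.018). Their part in the Col17a1 level was not tested.

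Col7a1, which builds the anchoring fibrils under epithelia, had the smallest difference of all members. Its knockout values were 17.6, 21.3 and 26.6 CPM as lowest, median and highest, and Wild-Type 1 to 5 had 23, 21, 20.7, 19.7 and 24.7 CPM. The wild-type values lay inside the knockout range, and the log2 fold change was 0.01 ± 0.11 (SE, adjusted p = 0.973 in edgeR). Col8a1, a short-chain collagen of vessel walls, was close to the counting limit, at 0.17, 0.327 and 0.398 CPM in the knockout and 0.385, 0.167, 0.345, 0.213 and 0.316 CPM in the wild type. Col28a1, which is known from peripheral nerve, ranged over 0.555, 1.02 and 1.95 CPM in the knockout and was 1.3, 1.21, 1.19, 0.789 and 0.596 CPM in the wild type. Their differences of 0.13 ± 0.31 and 0.26 ± 0.33 (SE) were smaller than their errors. That of Col28a1 was 0.09 without Knockout 5 and 0.42 without Knockout 1.

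The ratio of partner chains, taken from TPM, varied little. Col1a1 stood at 0.718 to 0.84 times Col1a2 over the 11 libraries, with a knockout median of 0.781 and a wild-type median of 0.823. Col4a1 was 1.65 to 2.18 times Col4a2, with medians of 2.08 and 2.1, and Col6a1 was 0.762 to 1.07 times Col6a2. The log2 ratios differed between genotypes by -0.03 (p = 0.504), -0.02 (p = 0.786) and -0.01 (p = 0.948), each in an exact two-sided permutation test over 462 splits that can reach 0.00216. Between collagen types, Col3a1 was 2.56 to 4.18 times Col1a1, and Col4a1 was 1.02 to 2.21 times Col1a1. These log2 ratios differed by 0.04 (exact p = 0.803) and -0.33 (exact p = 0.147). After adjustment over the 5 ratios the p-values were between 0.736 and 0.948.

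Across the 11 libraries the chains of type I, type III and type IV collagen were compared in log2 CPM. For Col1a1 and Col1a2 Pearson's r was 0.99 and Spearman's rho 0.99, for Col1a1 and Col3a1 0.96 and 1.00, and for Col4a1 and Col4a2 0.99 and 0.96, in each case with a permutation p for r of 1e-05, the smallest that 100000 resamples can give, and 1.33e-05 after adjustment over 4 relations. Without the 2 libraries farthest from the median of the first gene, r was 0.97, 0.99 and 0.97. Between the fibrillar and the basement membrane gene the relation was looser. Col1a1 and Col4a1 had an r of 0.75 (permutation p = 0.00833, the same after adjustment) and a rho of 0.76 (permutation p = 0.00854), and without Knockout 2 and Wild-Type 2 r was 0.62 (permutation p = 0.0753), so that the relation did not pass 0.05 without them. Without Knockout 2 alone r was 0.57 (permutation p = 0.0875).

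**Figure D4:**
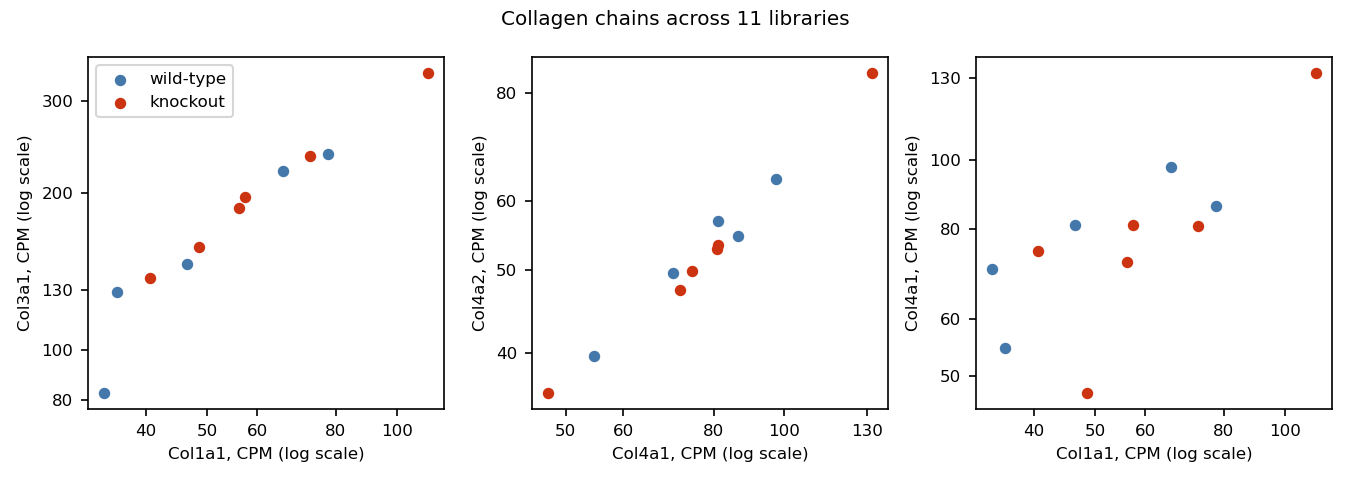
CPM of pairs of collagen genes in the 11 libraries on log axes, Col3a1 against Col1a1, Col4a2 against Col4a1 and Col4a1 against Col1a1, with 5 wild-type and 6 knockout libraries as points. The first pairs form narrow lines (r = 0.96 and 0.99), and the third is broader (r = 0.75), with Knockout 2 at the upper end of all.

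A few libraries set the ends of most members' ranges. Knockout 2 had the highest level of 17 of the 32 members and was among the highest 2 for 20. Wild-Type 2 had the lowest level of 14 members and Knockout 5 of 7, while Wild-Type 5 was among the highest 2 for 12. Within genotypes the median SD on the log2 scale was 0.38 over the members, beside 0.23 over all genes tested. Knockout 2 also had the highest summed fibroblast markers (105 CPM) and keratinocyte markers (27.7 CPM) of all libraries, and the highest myoepithelial (716 CPM), endothelial (119 CPM) and pericyte markers (29.8 CPM) of the knockout libraries. Wild-Type 2 had the lowest summed myoepithelial markers (407 CPM) and, at 52.7 CPM, the second highest B cell markers. Skeletal muscle markers summed to as much as 2074 CPM in Knockout 1, 335 CPM in Knockout 2 and 204 CPM in the wild type. The part of these markers in the collagen levels of these libraries was not tested. Without Knockout 2 none of the members passed the threshold in edgeR, where 28 of all genes did.

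**Figure D5:**
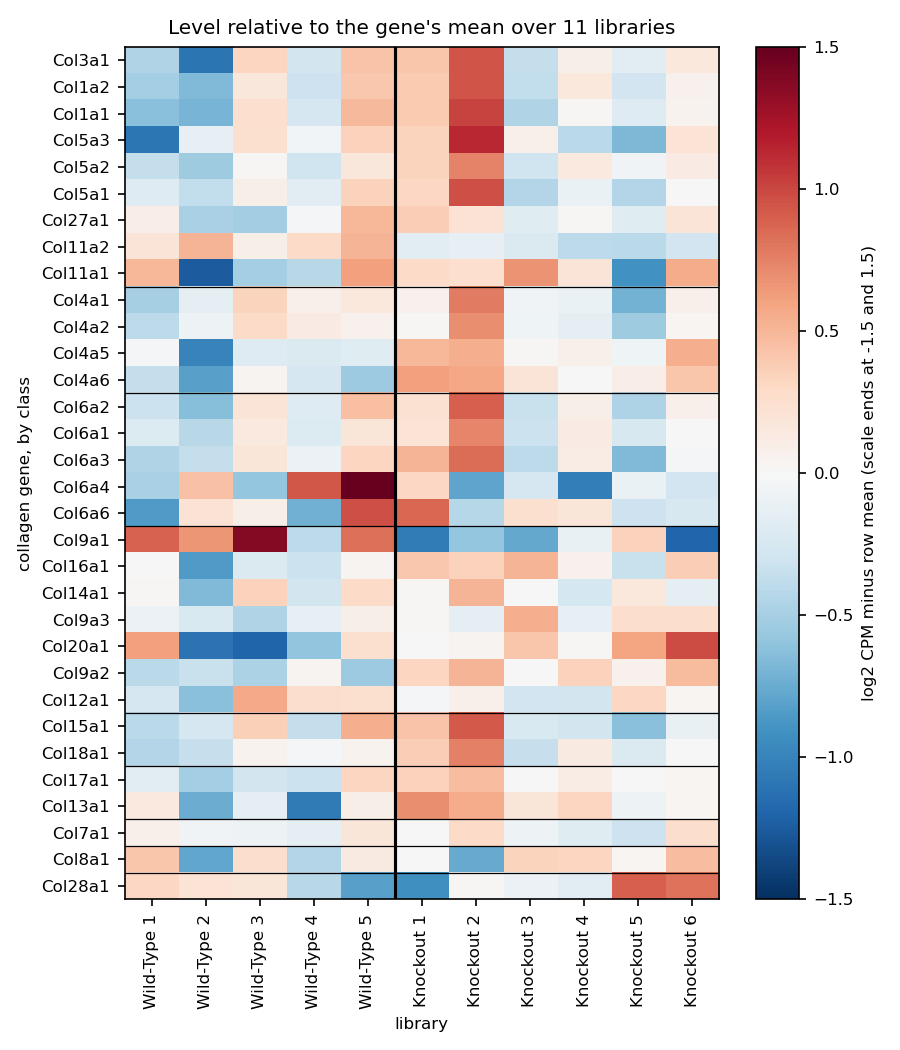
Log2 CPM of each of the 32 kept collagen genes (rows, by class) minus its mean over the 11 libraries (columns, wild type left and knockout right of the thick line), with the colour scale ending at -1.5 and 1.5. Knockout 2 has the highest level of 17 members, mostly fibrillar, type VI and multiplexin genes, and Wild-Type 2 the lowest of 14, while Col9a1 and Col11a2 run against the others.

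Of the members, 10 have 1 listed transcript, and in 16 the share of the leading transcript in the gene's TPM could be compared between genotypes. None differed after adjustment over the 16 (exact two-sided permutation tests, adjusted p between 0.623 and 0.827). The smallest unadjusted p belonged to Col27a1-201, which held 75.7% ± 15.3 (SD, n = 6) of the TPM of Col27a1 in the knockout and 97.6% ± 5.26 (SD, n = 5) in the wild type (exact p = 0.039). It held 93.5% of the reads of the gene. The other listed forms, Col27a1-206 and Col27a1-207, averaged only 3.69 and 4.13 reads per library. Short listed fragments weigh heavily in TPM. A listed fragment of Col16a1 with 183 bases held 56.1% of the TPM of Col16a1 on 0.553% of its reads, and one of Col12a1 with 945 bases held 77% on 20.6%. Levels per length of such genes depend on how these fragments are counted.

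The enzymes and receptors through which collagen is made, linked and sensed were tested in the same fit. Of 51 listed genes 41 were tested, 26 had log2 fold changes above 0 and 15 below, and none passed the threshold in edgeR or DESeq2, while 5 had an unadjusted p under 0.05 in edgeR (Adamts2, Bmp1, Loxl1, Loxl2 and Ddr2, all higher in the knockout by mean). Over all genes tested 12.4% had such a p, 6.31% in the higher direction. The median was 0.07, beside -0.01 over all genes. Among the 14 tested genes listed under prolyl and lysyl hydroxylation, 7 were above and 7 below 0. The smallest p was that of P3h4 at -0.22 ± 0.11 (SE, adjusted p = 0.411 in edgeR). Of 11 chaperones and export genes 7 were above 0, led by the folding factor Fkbp10 at 0.31 ± 0.19 (SE, adjusted p = 0.531). Fkbp10 stood at 0.24 without Knockout 6 and at 0.50 without Wild-Type 5.

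Of 5 tested genes that cut off the end pieces of procollagen or enhance the cutting 4 were above 0, and Adamts2, which cuts the amino end, had lowest, median and highest values of 2.83, 4.27 and 5.39 CPM in the knockout and 2.45, 3.51, 2.79, 2.82 and 2.81 CPM in Wild-Type 1 to 5. Its log2 fold change was 0.53 ± 0.18 (SE, adjusted p = 0.313 in edgeR), with overlapping groups. Of 4 crosslinking genes 3 were above 0, with Loxl1, a lysyl oxidase, at 0.62 ± 0.23 (SE, adjusted p = 0.339). Of 7 receptors and uptake genes 5 were above 0, with Ddr2, a receptor for fibrillar collagen, at 0.71 ± 0.29 (SE, adjusted p = 0.359). Loxl1 stood at 5.27 ± 1.31 (SD, n = 6) CPM in the knockout and 3.42 ± 1.16 (SD, n = 5) CPM in the wild type, and Ddr2 at 1.38 ± 0.365 and 0.831 ± 0.344 CPM.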

How the data were processed

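Per the labels, total RNA was made into strand-specific libraries, and the submitters' processing notes name Salmon 1.3.0, DESeq2 1.28.1 and GRCm38.p6 without giving options. Per the file headers, the deposited transcript tables hold estimated counts, TPM and effective lengths in bases. The authors also deposited gene values normalized across libraries, a signal whose file name credits DESeq2, used here for 1 alternative (log2 of the value + 1).

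Deposited estimated counts were summed per gene by GENCODE M21 identifiers and rounded. In all, 0.195% to 0.265% of a library's reads, in unmatched transcripts, were left out. Groups and replicate numbers came from the titles. The main test was edgeR 4.0.16 (R 4.3.3; quasi-likelihood F test, robust, TMM, filterByExpr), fitted to genotype alone, with p-values adjusted by Benjamini-Hochberg over 12716 genes. TMM factors averaged 1.07 in the knockout and 0.934 in the wild type. Libraries of one group differed by far more than sampling noise, as the chi-square statistic divided by its degrees of freedom was 21.9 to 95.9 over 25 pairs. Alternatives used DESeq2 1.42.0, limma 3.58.1, other scalings and filters, length offsets, a replicate block and 11 fits without 1 library each. Ratios and transcript shares had exact permutation tests (numpy 2.4.6), and ranks for Spearman's rho came from scipy 1.17.1. Scripts were tested on simulated data.

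All 32 members are named, with library values for up to 4 members per class with the highest TPM and for the 5 smallest p-values. Of the biosynthesis and receptor list, the gene of smallest p in each role is named with values. Members and lists were chosen with earlier results of these data known. Genes outside these choices were named after their values were seen.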

Additional observations from a re-analysis of the deposited data

Results flagged for a closer look

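In 50 sets of values, 1 per genotype for the members with library values, the gap between an extreme library and its nearest neighbour was compared with the group's range by Dixon's criterion. Chance gives about 2.5 such sets, and 2 were found. Col4a2 stood at 84.3 CPM in Knockout 2, with 36 to 53.3 CPM in the other knockout libraries. Col4a5 stood at 6.05 CPM in Wild-Type 2, with 10.4 to 12 CPM in the other wild-type libraries. Both are the libraries that also hold the highest or lowest level of the most collagen genes. Without Knockout 2 the log2 fold change of Col4a2 was -0.14, and without Wild-Type 2 that of Col4a5 was 0.44.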

How the results depend on the processing

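Over 288 values, the 32 members under 9 alternatives with all libraries, 4 had another sign. These were Col4a1 (-0.01 with limma on the deposited values), Col4a2 (-0.01 with the replicate block), Col7a1 (-0.05 with the replicate block) and Col12a1 (0.08 with total counts and no TMM). Total counts without TMM moved the median of all genes to 0.18 and the share of genes above 0 to 82.9%, with 29 members above 0 and a median of 0.44, and gave Tsc1 0.10. Relative to all genes the members' medians differ by 0.25 there and by 0.24 in the main values.

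DESeq2 passed 4 members and 146 of all genes, against 0 and 7 in edgeR. With 1 library left out, 0 to 28 of all genes passed (28 without Knockout 2, 0 without Knockout 3 or Knockout 6) and no member did. Leaving out 1 library changed the sign of 10 members: Col4a1 (-0.13 to 0.18), Col4a2 (-0.14 to 0.13), Col5a1 (-0.07 to 0.29), Col6a2 (-0.00 to 0.36), Col6a6 (-0.16 to 0.38), Col7a1 (-0.04 to 0.08), Col8a1 (-0.00 to 0.25), Col12a1 (-0.25 to 0.03), Col14a1 (-0.05 to 0.19) and Col15a1 (-0.14 to 0.25). The other 22 kept their sign.

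Same-numbered samples of both genotypes were not alike (correlations of -0.22 to 0.19, none of 5 best with its own number), so the numbers were not taken to pair the samples. With the replicate block 0 of all genes passed, 26 of 32 members were above 0 and their median was 0.19. An exact paired permutation test of the ratios over the 5 shared numbers cannot go below p = 0.0625.

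Among the log2 ratios, Col4a1 to Col4a2 was 0.02 from counts and -0.06 to 0.03 with 1 library left out, Col6a1 to Col6a2 was 0.01 with the replicate block and -0.07 to 0.05, Col3a1 to Col1a1 ran from -0.08 to 0.10, and Col4a1 to Col1a1 from -0.45 to -0.23 (p = 0.0476 in an exact permutation test without Knockout 3). The r of Col1a1 and Col4a1 ran from 0.57 (permutation p = 0.0875, without Knockout 2) to 0.85. Differences in leading transcript share, in percentage points, changed sign for Col4a5 (-3.2 to 0.753), Col5a1 (-3.76 to 5.16), Col11a1 (-6.6 to 10.2), Col13a1 (-15.8 to 4.0), Col14a1 (-0.733 to 4.55), Col15a1 (-4.2 to 0.957) and Col17a1 (-6.35 to 1.13). The cause of these changes was not tested. Members under 1 CPM, such as Col6a6 and Col8a1, rest on few reads.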
